A study of Mus musculus with 6 samples.

Results

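The genes described here encode the protein components of the cytosolic ribosome, read in whole testes of 10-day-old mice. They were chosen by symbol: rows whose name follows the Rpl and Rps pattern, together with Rplp0, Rplp1, Rplp2 and Rpsa, with names containing -ps left out. This gave 89 of the 22219 rows of the table. Of these, 77 form the core set, with 46 proteins of the large 60S subunit and 31 of the small 40S subunit. A further 7 were read apart as tissue paralogues (Rpl3l, Rpl10l, Rpl22l1, Rpl36al, Rpl39l, Rpl7l1 and Rps27l). How far each is biased to certain tissues was not tested. The last 5 are other matched rows (Rps3a2, Rps3a3, Rps4l, Rps12l1 and Rps12l2). Of these 5, Rps3a2, Rps3a3 and Rps12l1 are annotated as processed pseudogenes and Rps4l as a transcribed processed pseudogene, and Rps12l2 has no entry in the annotation used. In all, 88 of the 89 rows passed the filter on low counts, and Rps12l2, with at most 10.9 normalised read counts in any library, did not.

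Each ribosome contains ribosomal RNA and a near-complete set of these proteins, which are made in matched amounts and join the subunits during assembly in the nucleolus and cytoplasm. Most of their mRNAs begin with a run of pyrimidines, the 5′ terminal oligopyrimidine (TOP) motif, through which mTOR and the RNA-binding protein Larp1 control their translation. In the mammalian testis, retrogene copies such as Rpl10l and Rpl39l are known to supply ribosomes in male germ cells, where the X chromosome that carries their parent genes is silenced at meiosis.

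The study compared 3 control libraries with 3 libraries of a germ-cell conditional knockout (cKO) of Eif5, both from testes at day 10. The cKO came from mice with loxP-flanked Eif5 (Eif5 fl/fl) bred to Stra8-Cre mice, in which the Stra8 promoter drives Cre in germ cells, so somatic cells of the testis keep Eif5. Eif5 is the factor that promotes GTP hydrolysis by eIF2 when the initiating ribosome has found a start codon. The genotype of the controls is not given in the labels, and nothing in them says that libraries came from separate animals, so p-values reflect only how far these samples spread, and that spread may be technical. In bulk tissue, fewer cells of a type and less RNA per cell cannot be told apart.

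The libraries held between 32555443 and 48409550 recovered reads and between 20841 and 21582 detected genes. Eif5 read 11964, 10551 and 11187 normalised read counts in the controls and 8548, 8982 and 9574 in the cKO, with no overlap (log2 fold change -0.31, SE 0.0947, adjusted p = 0.024 by limma). That call was lost without cKO replicate 1 (adjusted p = 0.133), without cKO replicate 2 (0.0888) and in the 4 shallower libraries (0.0964). Over all genes, limma called 3521 of 17570 tested genes at an adjusted p under 0.05, with 1692 higher and 1829 lower in the cKO. Markers of differentiating and meiotic germ cells were lower in 17 of 18 genes, and their summed level ran from 52551 to 56531 in controls and from 27832 to 28563 in the cKO. Of 18 Sertoli cell markers 8 were higher and 1 lower, of 10 Leydig cell markers 7 were higher, and of 10 macrophage markers 7 were higher. Of 13 undifferentiated germ cell markers 5 were higher and 2 lower (median log2 fold change 0.22), with a summed level of 29293 to 35836 in controls and 24828 to 26231 in the cKO. Of 7 erythroid markers 2 were higher, with a summed level of 3593 to 4638 in controls and 4736 to 11800 in the cKO. Of 7 myoid markers 2 were lower, and of 7 endothelial markers 1 was higher and 1 lower. Of 9 spermatid markers 5 were abundant enough to test and 1 was lower, and the summed level of all 9 was at most 267.7 in any library. The part of these shifts in the ribosomal protein results was not tested.

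The sequences below show the transcription start of members whose levels are described further on, as 30 bases centred on the RefSeq start (build GRCm38.p6) and written 5′ to 3′ on the transcribed strand. Capitals mark the longest run of C and T in each window, and Rpl3l is shown at the first of its 2 listed starts.

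Rpl38 (chr11:114668565-114668594, plus strand): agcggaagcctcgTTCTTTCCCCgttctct

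Rpl15 (chr14:18270972-18271001, minus strand): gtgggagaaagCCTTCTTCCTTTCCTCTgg

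Rps6 (chr4:86857353-86857382, minus strand): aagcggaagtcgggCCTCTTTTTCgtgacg

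Rplp2 (chr7:141447636-141447665, plus strand): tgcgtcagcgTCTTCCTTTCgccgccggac

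Rps28 (chr17:33824548-33824577, minus strand): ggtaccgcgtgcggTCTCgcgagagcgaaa

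Rps4x (chrX:102189377-102189406, minus strand): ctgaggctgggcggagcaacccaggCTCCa

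Rpl39 (chrX:37085208-37085237, minus strand): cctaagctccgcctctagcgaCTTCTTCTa

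Rpl39l (chr16:10170213-10170242, plus strand): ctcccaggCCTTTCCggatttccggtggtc

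Rpl10l (chr12:66284387-66284416, minus strand): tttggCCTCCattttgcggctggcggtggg

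Rpl3l (chr17:24727811-24727840, plus strand): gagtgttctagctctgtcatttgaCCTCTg

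Of the 77 core genes 57 matched a RefSeq promoter entry, as did all 7 paralogues. A pyrimidine run of 8 bases or more lay in the window of 25 of 57 core genes (43.9%), against 13.9% of 27025 genes with an entry, and of 2 of 7 paralogues. A search for CTTTT, for its variant with a final C (CTTTC) and for a further variant, the letters CTTCC, allowed overlaps. At least 1 of these lay on the transcribed strand in 45.6% of core genes and 15.1% of all genes. On the other strand the shares were 21.1% and 15.1%. The longest runs in the windows of Rpl15 and Rpl38 are long, while those of Rps28, Rps4x and Rpl3l are short; a match describes these letters only.

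Rpl39l is shown with its parent Rpl39 because their similarity bears on how reads could be assigned. Both coding sequences have 153 bases without the stop codon (GENCODE M21; Rpl39l on chromosome 16, Rpl39 on the X chromosome), and capitals mark the 23 positions that differ. Identity was 85.0%, and the longest identical stretch was 38 bases.

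Rpl39l: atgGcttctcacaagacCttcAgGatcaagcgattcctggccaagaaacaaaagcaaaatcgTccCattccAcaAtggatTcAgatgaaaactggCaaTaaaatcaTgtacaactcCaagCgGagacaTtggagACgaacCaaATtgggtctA

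Rpl39: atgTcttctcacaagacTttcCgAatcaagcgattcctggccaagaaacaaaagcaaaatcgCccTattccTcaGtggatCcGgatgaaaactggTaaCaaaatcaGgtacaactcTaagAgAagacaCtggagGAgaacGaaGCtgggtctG

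Rpl10l was 84.7% identical to Rpl10, Rpl36al 87.7% to Rpl36a, Rps27l 76.2% to Rps27, Rpl3l 74.4% to Rpl3, Rpl22l1 70.2% to Rpl22 and Rpl7l1 62.6% to Rpl7. The closest pairs could share reads, so their split is uncertain.

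The first question was whether the mRNAs of the ribosome itself differed between cKO and control testes. They made up 5.67, 7.11 and 6.54% of all reads in the controls and 6.06, 5.72 and 6.06% in the cKO. The groups overlapped, with a log2 difference of -0.11 (exact two-sided permutation test, p = 0.4, adjusted p = 0.48 over 18 within-library measures). With 3 libraries a group the exact permutation test cannot go below p = 0.1. Gene by gene, 0 of the 77 core genes were called higher and 1, Rps28, was called lower by limma, which is 1.30% called against 20.0% of all genes tested (9.63% higher and 10.4% lower). At an unadjusted p under 0.05 limma gave 2 higher and 5 lower core genes (9.09%, against 33.4% of all genes tested). By count tests on recovered reads, edgeR called 1 higher and 1 lower (8.96% and 10.6% of all genes). DESeq2 called 2 higher, Rps4x and Rpl15, and 1 lower, Rpl12 (11.0% and 11.5% of all genes). The median log2 fold change was -0.04 over the core genes and 0.01 over all genes tested.

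The count depends on how libraries are scaled, and each scaling moved all genes with the core. With TMM factors 1 core gene was higher and 1 lower, against 10.2% and 10.0% of all genes (20.2% in all). With library totals 0 were higher and 5 lower, against 4.59% and 14.2% (18.8%), and with totals that leave out the core 0 and 5, against 4.39% and 15.0% (19.3%). Scaled on summed Sertoli marker reads, 0 of 77 core genes were higher and 54 lower, against 0.148% and 24.3% of all genes (24.5%). Here the share called lower was larger in the core than over all genes, unlike with the deposited factors. The median was -0.38 over all genes and -0.43 over the core. With the replicate number as a block 0 were higher and 1 lower, against 8.74% and 10.1% (18.8%); edgeR and DESeq2 called 19.5% and 22.5% of all genes in all.

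The core fold changes were small, with 69 of 77 genes within 0.25 log2 units of no change, and 30 lay above zero and 47 below. The 95% interval of 72 of the 77 stayed within a 1.5-fold change in either direction. The exceptions were Rps28, Rps4x, Rpl12, Rpl38 and Rpl24. The Rpl24 row, for a 60S protein, was nearly empty in every library, at 15.5, 5.44 and 14.2 normalised read counts in controls and 12.4, 8.83 and 4.85 in the cKO. Control and cKO libraries did not overlap for 4 core genes (Rpl9, Rpl10, Rpl15 and Rps4x), against 36.7% of all tested genes.

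**Figure D1:**
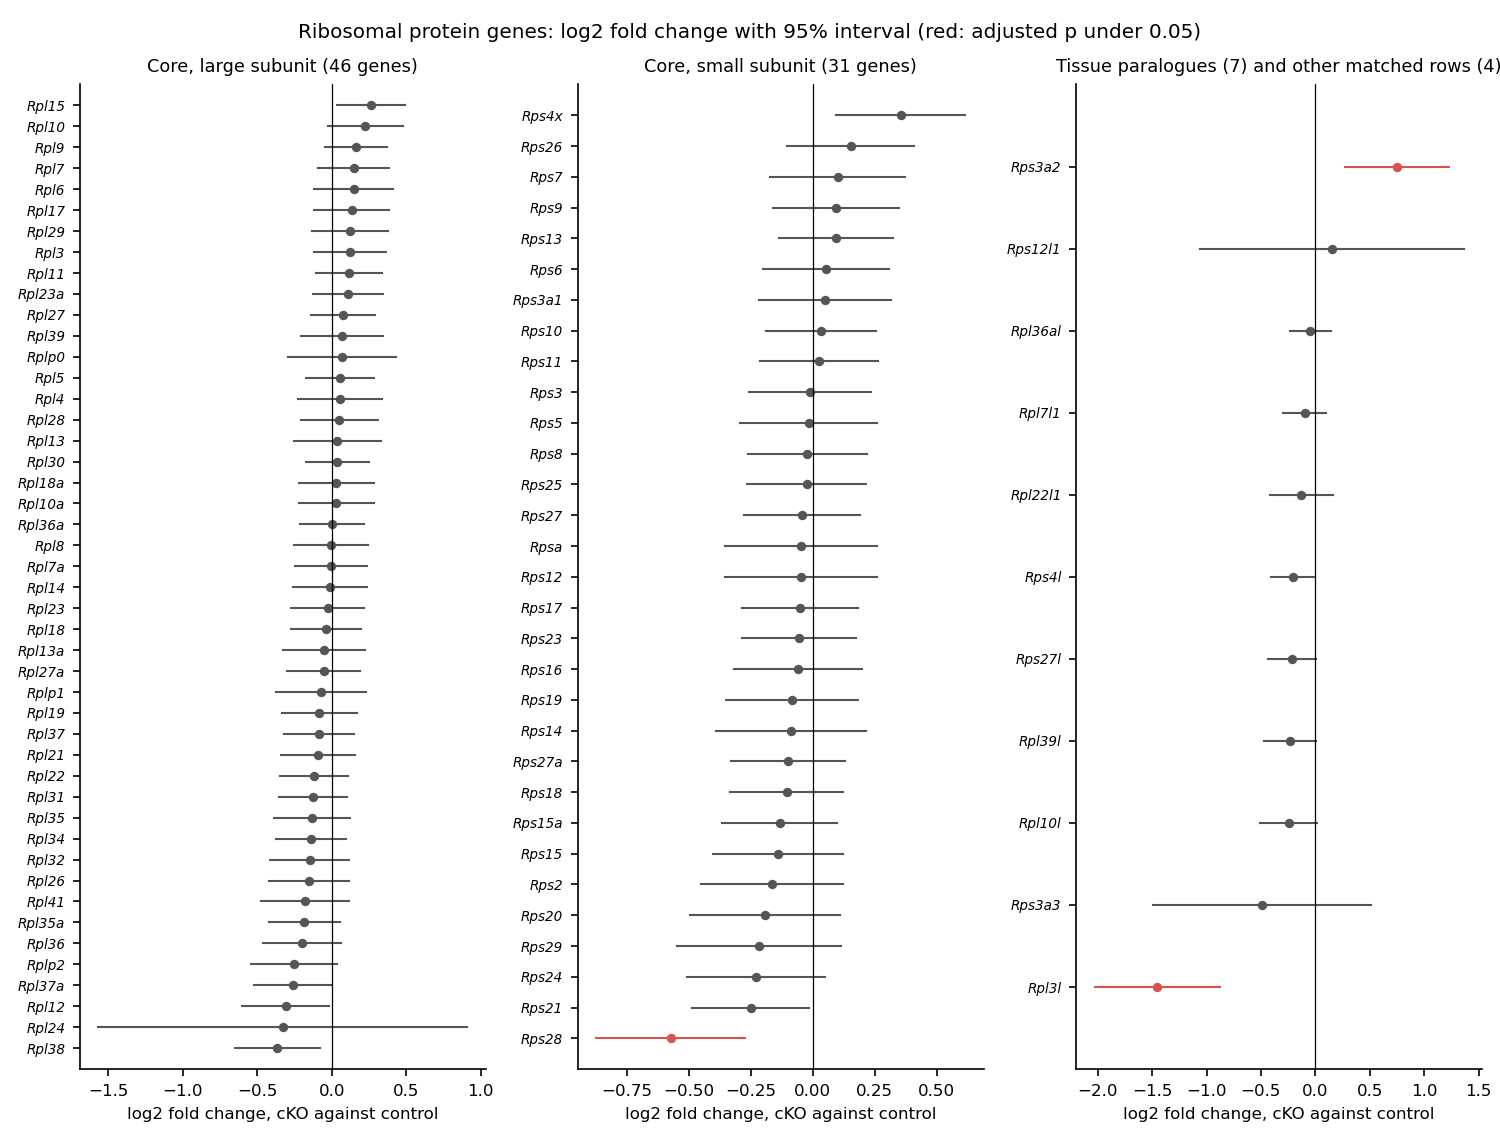
Log2 fold change of each tested ribosomal protein row, cKO against control (x axis, log2 units), with its 95% limma interval as a horizontal line, for the 46 large-subunit core genes, the 31 small-subunit core genes, and the 7 paralogues with 4 other matched rows. Red marks the rows with an adjusted p under 0.05, which are Rps28, Rps3a2 and Rpl3l, and the x axes of the 3 panels differ in range.

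By subunit, none of the 46 large-subunit genes was called by limma (median log2 fold change -0.01, with 4 at an unadjusted p under 0.05; edgeR called 0, and DESeq2 called Rpl15 higher and Rpl12 lower). Of the 31 small-subunit genes 1 was lower (median -0.05, with 22 below zero). The head of the 40S subunit, which swivels as mRNA and tRNAs move through the ribosome, had 1 gene of 14 lower by limma. That is 7.14%, against 10.4% of all genes tested, and edgeR called 1 lower and DESeq2 0. Of its 14 fold changes 13 were below zero (median -0.07). In the whole small subunit, which includes these 14, it was 22 of 31, and over all genes 8641 of 17570. Without cKO replicate 2 the median of the head genes was -0.001. The 9 genes at the exit of the peptide tunnel had none called by limma, edgeR or DESeq2 and 0 at an unadjusted p under 0.05, with a median of -0.08. Rpl5 and Rpl11, which enter the large subunit with 5S ribosomal RNA and bind the p53 regulator Mdm2 when free, stood at 0.06 and 0.11 on the log2 scale. Rpsa, the 40S protein also known as the laminin receptor, stood at -0.05, and Rps6, the phosphorylated target of S6 kinases, at 0.05, and neither was called.

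Rps28, a small protein of the 40S head, was the core gene called lower. It read 15913, 24778 and 19706 normalised read counts in controls and 13605, 10833 and 16040 in the cKO. The highest cKO library lay just above the lowest control, so the groups overlapped by that pair. The mean went from 20132 ± 4448 to 13493 ± 2605 (SD, n = 3), a log2 fold change of -0.57 (SE 0.144, 95% interval -0.87 to -0.27, adjusted p = 0.00807 by limma). The call was lost without control replicate 2 (-0.41, adjusted p = 0.0518), without cKO replicate 2 (-0.42, 0.0582) and with DESeq2 (adjusted p = 0.0643).

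Rps4x, the X-linked 40S protein and the largest positive fold change in the core, lay next to the threshold on the other side. Its levels were 28360, 33774 and 37478 in controls and 43099, 38577 and 45098 in the cKO, with every cKO library above every control. The log2 fold change was 0.35 (SE 0.125, adjusted p = 0.0507 by limma). It was called by edgeR (adjusted p = 0.0379), by DESeq2 (0.00983), and by limma without control replicate 3 (0.0202), with TMM factors (0.0455) and with a pseudocount of 0.5 (0.0493).

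Beyond the rule for named genes, the following core members were picked after their values were seen, as those nearest the threshold. Rpl15, a 60S protein, read 20042, 18963 and 23754 in controls and 24751, 24317 and 25818 in the cKO, again without overlap (log2 fold change 0.26, adjusted p = 0.0969 by limma). Rpl38, a 60S protein known for its part in the translation of Hox mRNAs, read 7735, 11474 and 9632 in controls and 7821, 5824 and 8786 in the cKO, and these overlapped (log2 fold change -0.36, adjusted p = 0.066 by limma). The remaining genes at an unadjusted p under 0.05 by limma were Rpl12 (-0.31), Rpl37a (-0.26) and Rps21 (-0.25). None of these passed adjustment by limma, while DESeq2 called Rpl12 lower.

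**Figure D2:**
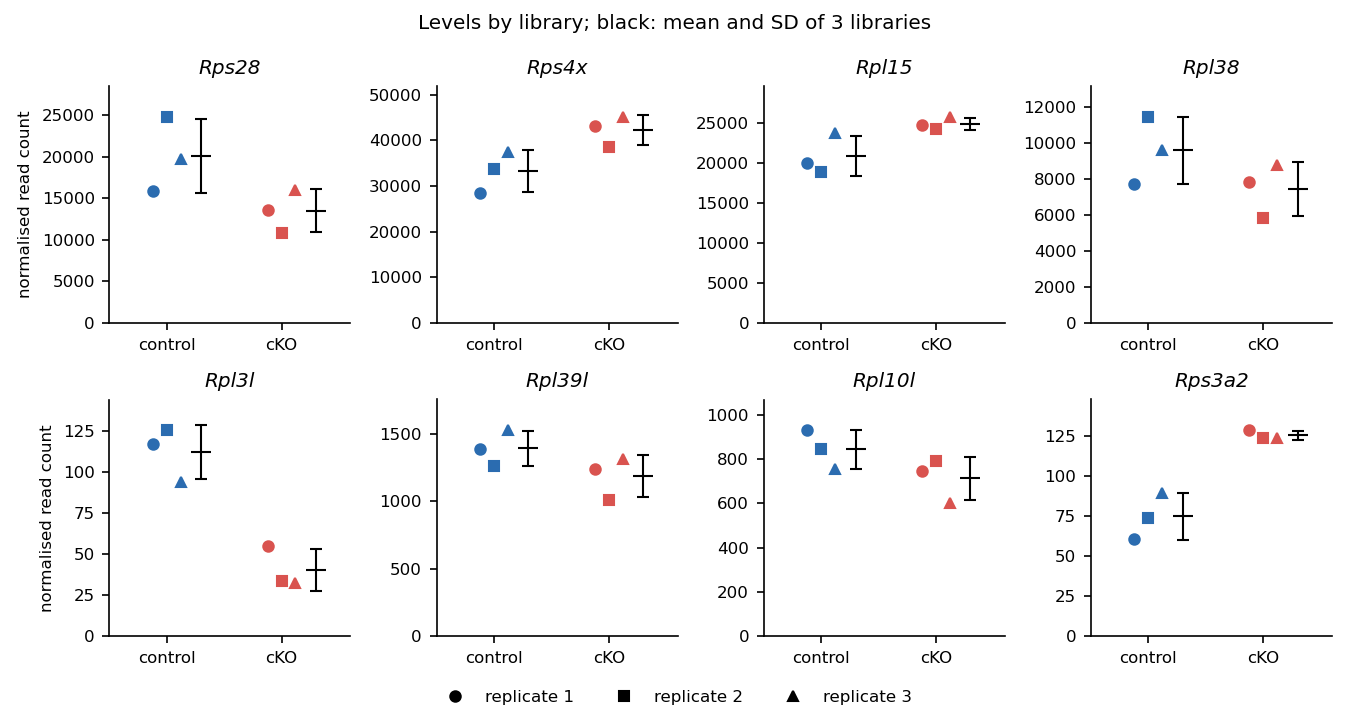
Normalised read counts (y axis, from 0) of 8 ribosomal protein rows in each of the 3 control (blue) and 3 cKO (red) libraries, with the mean and SD of each group in black and marker shapes for the replicate number. The Rpl3l and Rps3a2 groups are far apart, Rps4x and Rpl15 are apart by less, and the other 4 overlap.

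The stalk of the large subunit, which recruits the translational GTPases, is built from Rplp0 and pairs of Rplp1 and Rplp2. Per kilobase of main transcript, Rplp1 (114433 in controls, 107735 in the cKO), Rplp0 (104380 and 108506) and Rps12 (91189 and 86946) had the highest mean normalised read counts of the core. None of the 3 stalk genes was called: Rplp0 had a log2 fold change of 0.07, Rplp1 of -0.07 and Rplp2 of -0.25. Set against each other within a library, summed Rplp1 and Rplp2 were 60.9, 64.2 and 61.6% of Rplp0 in controls and 52.8, 54.4 and 54.9% in the cKO, without overlap (log2 difference -0.20, exact permutation p = 0.1, the smallest possible, adjusted p = 0.18). At the low end per kilobase stood Rpl24 (17.3 and 12.8), Rps15a (4280 and 3881) and, by the mean of both groups, Rpl22 (8423 and 7738). Rpl18 (8301 and 8042) and Rps20 (9009 and 7730) lay close to Rpl22, and the order of these 3 differed between the groups. These values use 1 main transcript a gene (5179 bases for Rps15a), and a long listed transcript lowers them.

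The summed large-subunit to small-subunit ratio was 1.36, 1.34 and 1.36 in controls and 1.40, 1.37 and 1.40 in the cKO. The groups did not overlap, and the log2 difference was 0.04 (exact permutation p = 0.1, adjusted p = 0.18). Without Rplp0, the most read member, they overlapped, at a difference of 0.03 (exact permutation p = 0.2). Without Rps28, or as the mean of log2 levels, the groups did not overlap and the difference was again 0.03 (exact permutation p = 0.1 for each).

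The X-linked members of the core are Rps4x, Rpl10, Rpl36a and Rpl39. All had fold changes at or above zero with a median of 0.15 (Rpl10 0.23, Rpl39 0.07 and Rpl36a 0.00 on the log2 scale), and limma called none of the 4, with 1 at an unadjusted p under 0.05 and 1 (Rps4x) called by edgeR and by DESeq2. The 688 other tested X-linked genes had a median of 0.03, with 80 higher and 116 lower. Scaled to summed Sertoli markers, the median of the 4 was -0.24, so the sign depends on scaling. Summed against the autosomal core within each library, which needs no scaling, they stood at 3.61, 3.35 and 3.77% in controls and 4.24, 4.15 and 4.52% in the cKO, with no overlap (log2 difference 0.27, exact permutation p = 0.1, adjusted p = 0.18). Most of that sum came from Rps4x (mean 33204 in controls, 42258 in the cKO) and Rpl10 (28906 and 33657). The means of Rpl36a (12312 and 12306) and Rpl39 (7836 and 8198) hardly differed. The ratio was not computed without Rps4x, so it does not describe the X-linked genes as a class.

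**Figure D3:**
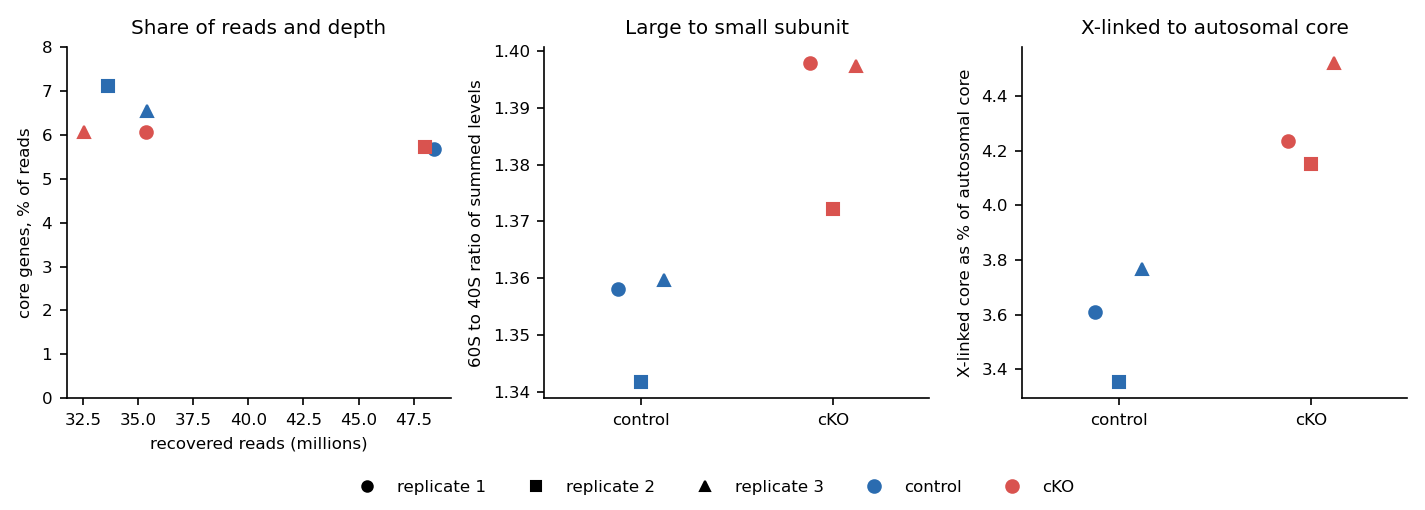
Left, share of reads in core genes (y axis, percent, from 0) against recovered reads (unit as on the axis); middle, the ratio of summed 60S to 40S levels; right, X-linked core as a percentage of the autosomal core. Each point is 1 library (blue control, red cKO, shape for replicate); the middle and right axes do not start at 0, and both show every cKO library above every control.

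Core levels also varied between libraries of the same group. Averaged over 76 core genes without Rpl24, the deviation from each gene's mean was -0.19, 0.13 and 0.11 log2 units in the controls and 0.03, -0.12 and 0.04 in the cKO. Control replicate 1 and cKO replicate 2, the 2 deepest libraries, were the 2 lowest: 47 of the 76 genes had their lowest level in the former and 24 in the latter. The median SD within groups was 0.164 log2 units over the core and 0.112 over 1533 other tested genes with a mean of 5000 or more. Without control replicate 1, limma called 0 of 77 core genes higher and 11 lower, against 7.79% and 7.90% of all genes (15.7% in all). Those 11 are a larger share of the core than the 7.90% called lower over all genes. The part of depth in these values was not tested.

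The core was also set beside other abundant genes and other short genes. Of those 1533 abundant genes 431 were higher and 60 lower (32.0% called, median 0.16). They were chosen by a lower limit only, so their levels were not matched to the core. Of 1561 other tested genes with a main transcript under 1 kb, 64 were higher and 82 lower (9.35%). Their median was -0.01. Among the 49 core genes that short, 0 were higher and 1 was lower by limma (2.04%, 5 at an unadjusted p under 0.05), at a median of -0.05.

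The next question was whether the tissue paralogues moved apart from the core. Of the 7, 1 was lower and none was higher by limma (14.3%, against 20.0% of all genes tested; 1 at an unadjusted p under 0.05, and edgeR and DESeq2 also called 1 lower and 0 higher). All 7 fold changes were below zero, with a median of -0.22.

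Rpl3l, the paralogue of the peptidyl-transferase-centre protein Rpl3 that is best known from heart and skeletal muscle, was the gene called. It read 117, 125 and 93.8 normalised read counts in controls and 55.1, 33.7 and 32.7 in the cKO. Every cKO library lay below every control. The mean went from 112 ± 16.3 to 40.5 ± 12.7 (SD, n = 3), a log2 fold change of -1.45 (SE 0.277, 95% interval -2.03 to -0.87, adjusted p = 0.00101 by limma). It was called in all 19 alternatives run, at -1.83 to -1.31. Relative to its parent it was 0.339, 0.310 and 0.254% of Rpl3 in controls and 0.143, 0.0892 and 0.0794% in the cKO (log2 difference -1.57, exact permutation p = 0.1, adjusted p = 0.18), while Rpl3 itself stood at 0.12 on the log2 scale. Per kilobase it was the scarcest paralogue, at 81.4 in controls and 29.5 in the cKO.

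Rpl39l, a paralogue of the exit-tunnel protein Rpl39 expressed in male germ cells, read 1386, 1262 and 1523 in controls and 1237, 1008 and 1312 in the cKO. These overlapped, at a log2 fold change of -0.23 (adjusted p = 0.156 by limma). As a share of X-linked Rpl39 it was 19.7, 18.8 and 15.7% in controls and 14.3, 15.4 and 14.0% in the cKO. Those shares did not overlap (log2 difference -0.30, exact permutation p = 0.1, adjusted p = 0.18).

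Rpl10l, the autosomal retrogene copy of X-linked Rpl10 needed for male meiosis, read 930, 847 and 754 in controls and 747, 790 and 603 in the cKO. The groups overlapped (log2 fold change -0.25, adjusted p = 0.178 by limma). Its share of Rpl10 was 3.80, 2.74 and 2.42% in controls and 2.20, 2.52 and 1.70% in the cKO, also overlapping (log2 difference -0.47, exact permutation p = 0.2).

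Rps27l, a p53-inducible paralogue of Rps27, read 5148, 5220 and 6042 in controls and 4707, 4102 and 5375 in the cKO, with overlap (-0.22, adjusted p = 0.154 by limma). Against Rps27 it was 40.7, 43.8 and 40.7% in controls and 37.5, 36.7 and 36.9% in the cKO, without overlap (log2 difference -0.17, exact permutation p = 0.1, adjusted p = 0.18). The remaining paralogues had smaller fold changes and were not called: Rpl22l1 (-0.13), Rpl7l1 (-0.10) and Rpl36al (-0.05), with ratio differences from their parents of -0.01, -0.25 and -0.05 and overlapping groups for each.

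**Figure D4:**
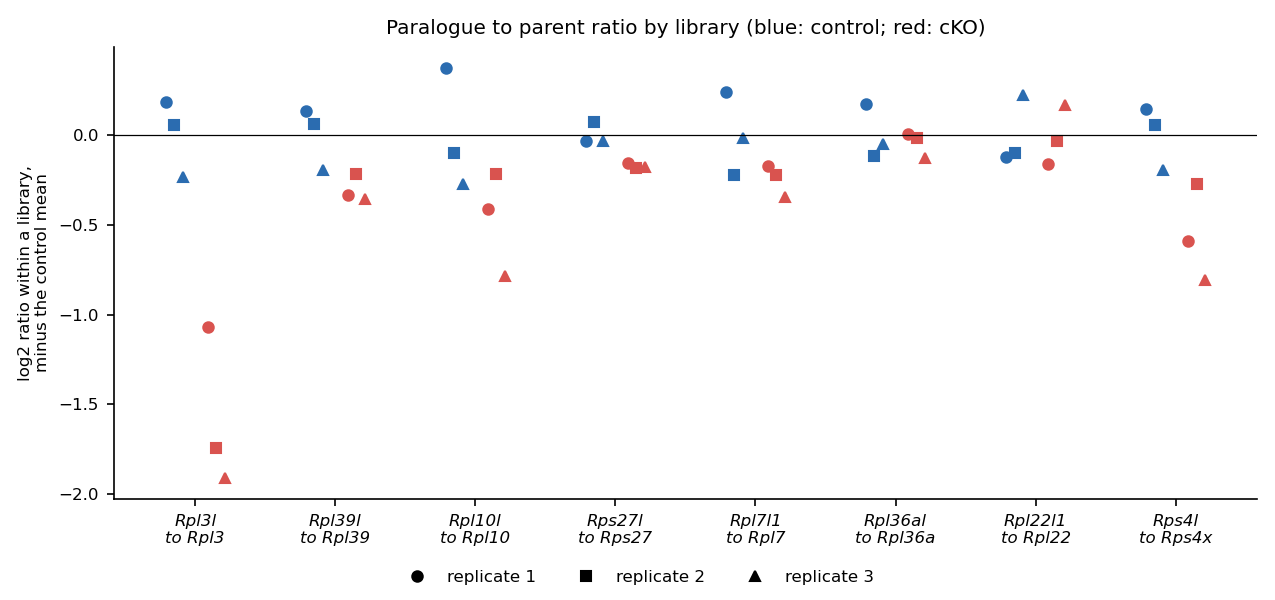
Log2 ratio of each paralogue to its parent gene within a library, minus the control mean (y axis, log2 units), for 8 pairs, with control libraries in blue and cKO libraries in red. Control and cKO points do not overlap for Rpl3l, Rpl39l, Rps27l and Rps4l, and overlap for the other 4.

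The other matched rows could hold reads from their parent genes, so their values are uncertain. Rps3a2, a processed-pseudogene copy of Rps3a1, read 60.6, 74.0 and 89.4 in controls and 128, 124 and 124 in the cKO, with no overlap (log2 fold change 0.75, SE 0.228, adjusted p = 0.0257 by limma). The call was lost when any library but control replicate 3 was left out (adjusted p from 0.0503 to 0.0952), in the 4 shallower libraries (0.183) and under scaling to Sertoli markers (0.33). As a log2 ratio to Rps3a1 it differed by 0.70 (exact permutation p = 0.1, adjusted p = 0.18). Rps4l, a copy of Rps4x, had a log2 fold change of -0.20 (adjusted p = 0.145 by limma) and was 13.2, 12.4 and 10.4% of Rps4x in controls and 7.94, 9.89 and 6.85% in the cKO (log2 difference -0.56, exact permutation p = 0.1, adjusted p = 0.18). Rps3a3 and Rps12l1 stayed under 30 normalised read counts in every library and were not called.

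The wider translation machinery was read from lists around these genes. Fau, whose product is a ubiquitin-like protein fused to a 40S protein, had a log2 fold change of 0.04 (adjusted p = 0.843 by limma). Rack1 (listed as Gnb2l1), a scaffold on the 40S head, had one of 0.12 (adjusted p = 0.529 by limma). Of 21 other TOP mRNAs, such as elongation factors Eef1a1 and Eef2, limma called none (median 0.09, 1 at an unadjusted p under 0.05), edgeR called 0 and DESeq2 called 1 higher. Of 19 tested regulators of TOP translation limma called 2 higher and 2 lower, which is 21.1% against 20.0% of all genes tested. The number called higher was 1 with edgeR and 4 with DESeq2 or TMM factors, with 2 lower each time. Larp1b, a relative of Larp1, read 1567, 1163 and 1085 in controls and 612, 714 and 719 in the cKO (log2 fold change -0.88, SE 0.13, adjusted p = 7.8e-05 by limma). Mtor, the kinase upstream of TOP translation, read 7084, 7489 and 6905 against 5608, 5455 and 5169 (-0.40, SE 0.0893, adjusted p = 0.00345 by limma). Neither gene's groups overlapped, and both calls held in all 19 alternatives. The 2 higher genes were Sesn2, a stress-induced inhibitor of mTOR (0.32), and Eif4ebp1, an mTOR target that blocks eIF4E (0.28); both turned below zero under scaling to Sertoli markers, at -0.07 and -0.11, and were lost there and in 5 and 12 other alternatives. Of 12 ribosomal protein chaperones and related factors limma called 2 lower and 0 higher (16.7%, against 20.0% of all genes tested), DESeq2 also called 2 lower, and edgeR and TMM factors left 1 lower. At an unadjusted p under 0.05, 4 were lower and 0 higher. The 2 were Ltv1, which serves 40S assembly (-0.57, called in all 19 alternatives), and Grwd1, the chaperone of Rpl3 (-0.34, lost in 8).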

How the data were processed

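RNA-seq was run on total RNA from whole testes with an mRNA library kit, per the labels' protocols. The submitters' processing notes name StringTie 1.3.1 and RSEM without their role. Aligner, genome build, annotation and strand handling were not given in the sources used here. A single table the authors deposited holds a signal per gene, gene counts divided by 1 size factor per library (0.825 to 1.35), although its name calls them raw counts. Multiplying back gave whole reads for 100% of values within 1e-06. Among low recovered counts, 75.1 to 80.9% were even in each library, so recovered reads may not all be independent. The reason was not tested.

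Fold changes come from limma 3.58.1 (R 4.3.3, trend, two-sided, Benjamini-Hochberg adjustment over all 17570 genes tested) on log2(value + 2), after edgeR's filterByExpr (minimum count 10) on the recovered reads. On this scale the change of low genes is understated. As a check on recovered reads, edgeR 4.0.16 called 3432 genes (1575 higher, 1857 lower), and DESeq2 1.42.0 was a further alternative. Ratios within a library use log2 with the same pseudocount of 2 and an exact permutation test. The fit was tested on simulated data.

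Named genes were every paralogue with its parent, the X-linked, stalk and 5S genes, Rpsa, Rps6, called core genes, the 3 highest and 3 lowest core genes per kilobase, other matched rows, up to 4 called genes of each context list, and Eif5. Members, lists and rules were chosen with earlier results of these data known. The ratios of Rps4l, Rps3a2, the stalk and X-linked genes were chosen after their values were seen, as were the 60S to 40S variants and the settings on the 2 deepest libraries. Lengths and coding sequences come from GENCODE M21 and start windows from RefSeq GRCm38.p6, by symbol (Biopython 1.88). No 2 libraries agreed within sampling noise (chi-square per degree of freedom at least 9.56). Some genes of the context lists and pseudogene rows are not reported here.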

Additional observations from a re-analysis of the deposited data

How the results depend on the processing

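Under scaling to summed Sertoli marker reads, the median of all genes shifted to -0.38 and that of the core to -0.43. Calls over all genes became 26 higher and 4278 lower, against 1692 and 1829. There 54 of 77 core genes and 4 of 7 paralogues were called lower, and Rps3a1 (-0.34), Rplp0 (-0.32) and Rps6 (-0.34) turned to called lower. Library totals gave 807 higher and 2495 lower over all genes, 5 core genes lower and 2 paralogues lower; totals without core genes gave 772 and 2627, 5 and 3. A core gene was called higher with pseudocount 0.5, TMM factors or edgeR (1 each), and 2 with DESeq2. Leaving out 1 library gave 0 to 2 core genes higher (2 without control replicate 3) and 0 to 11 lower (11 without control replicate 1, 2 without cKO replicate 3, 0 without control replicate 2 or cKO replicate 2), with a core median of -0.12 to 0.02. Chosen after seeing the data, the 2 deepest libraries as a block gave 2 higher and 5 lower core genes. The 4 shallower libraries, chosen likewise, gave 5 lower. For these settings and those without 1 library, the share over all genes is given only without control replicate 1 (7.79% higher, 7.90% lower). For the others that share was not worked out, so those counts are given without it. The log2 ratio difference to the parent without 1 library ran from -1.83 to -1.41 for Rpl3l, -0.61 to -0.28 for Rpl10l, -0.40 to -0.24 for Rpl39l, -0.19 to -0.14 for Rps27l, -0.36 to -0.13 for Rpl7l1, -0.10 to 0.10 for Rpl22l1 and -0.11 to 0.04 for Rpl36al, and that of 60S to 40S from 0.03 to 0.05. The cause of these changes was not tested. The labels do not say whether the replicate numbers pair the samples. Deviations of same-numbered libraries from their group mean correlated at -0.0379, -0.00235 and 0.0551. With 3 libraries a group these correlations cannot decide whether samples were paired. With the replicate block, 0 core genes were higher and 1 lower, and 3306 genes were called over all genes. Low counts limit the precision for Rpl24, Rps3a3, Rps12l1 and Rps12l2, whose levels stayed under 30 normalised read counts. Why the Rpl24 row is low was not tested.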

Other observations

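Ribosomal protein pseudogene rows with -ps in the symbol, left out of the members, made up 0.236 to 0.708% of the core reads. Of the 100 rows 45 passed the filter, and those called higher by limma were Rpl17-ps10, Rps10-ps2 and Rps12-ps3. These values are uncertain, since such copies can share reads with their parents. Rpl17-ps10 went from 1406 ± 296 to 2252 ± 160 normalised read counts (SD, n = 3; log2 fold change 0.70, SE 0.122, adjusted p = 0.000455 by limma), without overlap. Rps2-ps13 read 0, 6101 and 6346 in controls and 10014, 16.1 and 4587 in the cKO, with the 2 lowest values in the 2 deepest libraries. Its parent Rps2 read between 59822 and 77245 in all 6 libraries. Adding -ps rows to their parents called no further core gene.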
